A study of Arabidopsis with 8 samples.

Results

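Genes that salt raised in the Ler ecotype of Arabidopsis and hardly moved in the Sha ecotype are described here from leaf microarrays. Each array position carries a probe, a short DNA strand meant to bind the RNA of 1 gene. Its signal was taken as the log2 intensity minus the 75th percentile of its own array. Of 30255 probes well above background on all 8 arrays, 45 rose with salt by more than 1.5 on this log2 scale in Ler while their change in Sha lay between −0.5 and 0.5. These 45 probes read 35 genes, 5 of them through 2 probes each, and 5 probes had no gene in the RefSeq table of the TAIR10.1 assembly. The salt changes of both ecotypes thus chose the set, and they are given below as a description, without a test.

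Ler (Landsberg erecta) is a common laboratory ecotype, a line collected from nature and kept inbred, and Sha (Shahdara) is an ecotype from Central Asia. The study compared the salt responses of Sha with those of Ler and of the ecotype Col, which is not among the arrays used here. A rise in Ler alone therefore means a rise in Ler and not in Sha, and Col was not examined. Seedlings of both were grown on MS medium, moved 10 days after sowing to plates with 0 mM NaCl (control) or 100 mM NaCl (salt), and their leaves were taken after 4 days. The groups are called Ler control, Ler salt, and the same for Sha. They had 2 arrays each, 8 in all, with Cy3-labeled RNA from leaves of at least 30 seedlings of a plate on each array, so that an array is a pool of plants from 1 plate. The labels and the methods differ in the day length and temperature they give for growth, and no other treatment separates the groups.

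High salt stresses leaves both by holding back water and by letting sodium in, and plants answer with hormones such as abscisic acid and, as in wounding, jasmonate. Vegetative storage proteins are classical leaf markers of jasmonate. Salt-treated leaves are also known to change the remodeling of cell walls, the pumping of ions across membranes and the supply of cysteine for glutathione.

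Between 72.5% and 79.0% of the spots of an array were well above background, no spot was saturated, and the median SD between the 2 arrays of a group was 0.083 to 0.094 (log2) over all tested probes. All 15 leaf markers were well above background on all 8 arrays. Their summed linear signal (in units of the 75th percentile) was 1509 to 2331 in Ler control, 826 to 899 in Ler salt, 1067 to 1354 in Sha control and 851 to 1092 in Sha salt. Root markers were also read, 18 of 19 on all 8 arrays, with sums of 18.6 to 19.1, 5.13 to 5.36, 18.7 to 19.4 and 4.10 to 4.32 in the same order, lower with salt in both ecotypes. Detected leaf markers thus cannot show that the samples held leaf alone. Seed storage markers moved with the contrast that defines the set. The summed signal of 10 such genes went from 0.308–0.316 in Ler control to 2.24–2.43 in Ler salt and from 0.589–0.677 in Sha control to 0.790–0.917 in Sha salt. Only 1 of the 10 was well above background on all 8 arrays and none is in the set, and their part in the members' changes was not tested. In whole leaves, fewer cells of a type and less RNA per cell cannot be told apart.

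A rise limited to Ler was uncommon. Of 1794 probes that rose by more than 1.5 in Ler, 1741 rose by more than 0.5 in Sha as well, 1430 of them by more than 1.5, and 8 fell by more than 0.5, which leaves the 45 (2.51%). The opposite choice, a rise above 1.5 in Sha with a change within 0.5 in Ler, took 121 probes. In the set, the salt change ran from 1.51 to 4.24 in Ler with a median of 1.80, and from −0.42 to 0.50 in Sha with a median of 0.17. The change in Sha was above 0 in 31 probes and below 0 in 14. Within 1 replicate number, the rise in Ler was never under 1.33, and the change in Sha stayed between −0.51 and 0.65. Both limits were met by 36 of the 45 probes in replicate number 1, by 37 in number 2 and by 29 in both. Many members were dim, and 21 of the 45 had a signal under 5 times the local background on at least 1 array. Here and below, a signal set against the local background is what remains after background correction, so a value under 1 is not a spot below background.

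**Figure D1:**
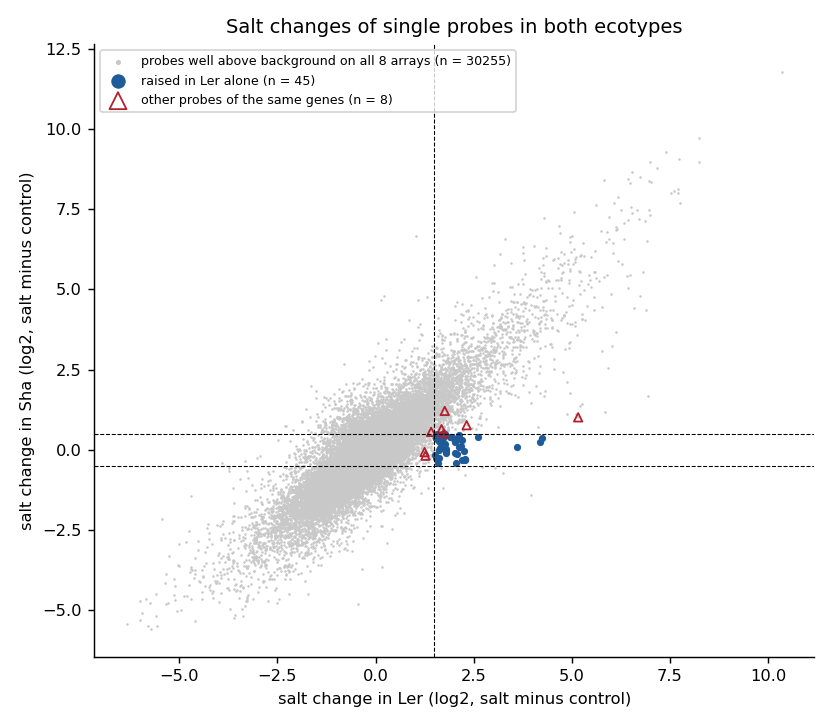
Salt change in Sha (vertical, log2) against salt change in Ler (horizontal, log2) for each probe well above background on all 8 arrays (gray). The 45 probes raised in Ler alone (blue) lie right of the dashed line at 1.5 and between the dashed lines at −0.5 and 0.5, and red triangles are the 8 other detected probes of the same genes, 6 of which lie above 0.5 in Sha.

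The limits cut through a continuous cloud. Just inside the Ler limit lay IDL1 (1.508), AT5G50090 (1.54) and a probe of EXO70B2 (1.54), and just outside it lay CAX1 (1.496), TTG2 (1.48) and AT5G46080 (1.47). Just inside the upper Sha limit were ABCG16 (0.496), AT5G14730 (0.48) and EXO70B2 (0.47), while AT4G21650 (0.503), a probe without a gene (A_84_P837868, 0.505) and a further probe of AT1G28600 (0.51) were just above it. At the lower Sha limit, OCT6 (−0.42), AT2G42270 (−0.40) and AT5G24040 (−0.33) were inside, and AT2G30670 (−0.53), AT4G17470 (−0.57) and UBQ9 (−0.58) outside.

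The Sha arrays could lie anywhere relative to Ler, since the rule did not set their level. In 40 of the 45 probes both Ler salt arrays were above all 4 Sha arrays, which was so for 19.7% of all probes well above background. In 27 probes both Ler control arrays were below all 4 Sha arrays, against 19.3% of all such probes. A rise in Ler moves a probe toward the first pattern whatever the Sha level is, so nothing is read from these shares. In 22 probes Ler started below every Sha array and ended above every one (1.81% of all probes did so), and Sha without salt lay between both Ler states. The rule favors this pattern too, so nothing is read from that share either. In 18 probes Ler did not start below every Sha array and ended above every one. In 9 of these, Ler was above all Sha arrays already without salt. The remaining 5 probes, of SERAT3;2, AT2G42270, CAF1a, DIC2 and one without a gene (A_84_P843303), started below Sha in Ler and did not pass above it.

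VSP1 (AT5G24780), a vegetative storage protein with an acid phosphatase fold that jasmonate induces, had the largest rise. Its brighter probe in the set (A_84_P97476) read −2.28 and −2.21 in Ler control, 1.96 and 1.94 in Ler salt, 0.40 and 0.38 in Sha control, and 0.64 and 0.61 in Sha salt. Both Sha groups lay between Ler without salt and Ler with salt. The salt change was 4.19 (18.2-fold) in Ler and 0.24 (1.18-fold) in Sha, and the second probe (A_84_P805566) gave 4.24 and 0.37. A further VSP1 probe (A_84_P805621), which had the highest signal of the 3 and is outside the set, rose by 5.16 in Ler and by 1.01 in Sha. At that probe the arrays read −0.58 and −0.72, 4.53 and 4.49, 2.29 and 2.37, and 3.40 and 3.28 in the same order of groups. VSP1 therefore rose in Sha as well by its brightest probe, though far less than in Ler. Its close copy VSP2, a neighbor whose RNA may bind the same probes, is outside the set with −0.94 and −1.0, 4.85 and 4.91, 1.89 and 2.02, and 3.13 and 3.16, a change of 5.85 in Ler and 1.19 in Sha.

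**Figure D2:**
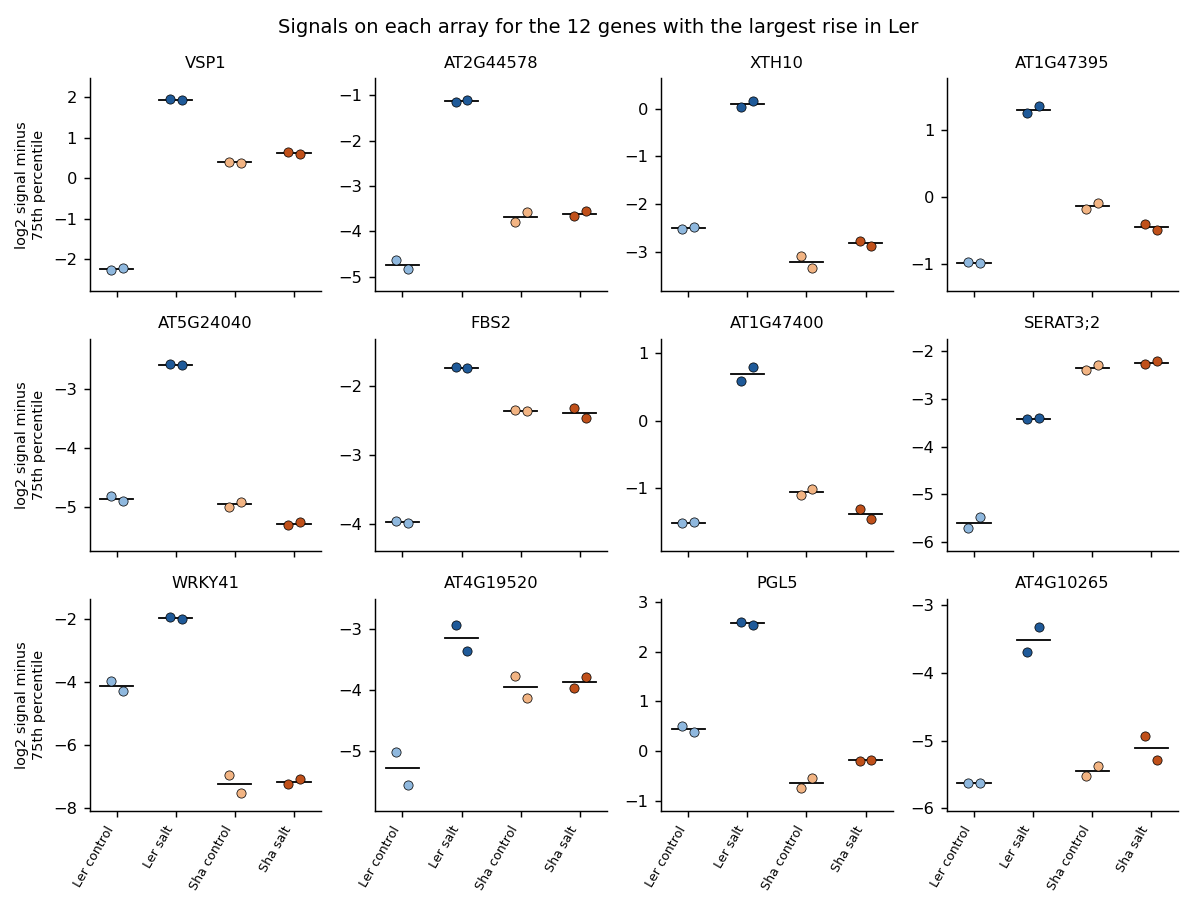
Log2 signal minus the array's 75th percentile (vertical) for the 12 genes of the set with the largest rise in Ler, each by its brightest probe in the set. Points are single arrays, 2 in each of the 4 groups, bars are group means, and each panel has its own scale: in all 12 the Ler salt arrays are above the Ler control arrays, and in SERAT3;2 they remain below all Sha arrays.

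The set held transcription factors and other regulatory proteins. WRKY41 (AT4G11070), a transcription factor of the WRKY family, read −3.96 and −4.27 in Ler control, −1.94 and −2.00 in Ler salt, −6.94 and −7.51 in Sha control, and −7.24 and −7.07 in Sha salt. Sha was far below Ler in both conditions, and its lowest background-corrected signal was 0.67 times the local background, the lowest of the set. MYB62 (AT1G68320), a transcription factor of the R2R3-MYB family, read −4.94 and −4.64, −3.13 and −3.16, −5.49 and −5.51, and −5.59 and −5.33 in the same order. Both Ler groups lay above every Sha array. FBS2 (AT4G21510), an F-box protein of the kind that selects targets for ubiquitin ligases, read −3.96 and −3.99 in Ler control, −1.72 and −1.74 in Ler salt, −2.34 and −2.36 in Sha control, and −2.32 and −2.46 in Sha salt. Ler therefore moved from below Sha to above it, by 4.75-fold, while the Sha groups overlapped. IQD25 (AT4G29150), a calmodulin-binding protein, changed by 1.60 in Ler and 0.31 in Sha with the same crossing.

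CAF1a (AT3G44260), a deadenylase that shortens the poly(A) tails of mRNA, was read by 2 probes that agreed on salt and disagreed on the ecotypes. The first (A_84_P17463) read −3.13 and −3.39 in Ler control, −0.91 and −1.47 in Ler salt, −0.87 and −0.84 in Sha control, and −0.97 and −1.01 in Sha salt. The second (A_84_P869273) read −2.68 and −3.15, −0.63 and −1.15, −3.07 and −3.40, and −3.22 and −3.46. Both gave a rise of about 4-fold in Ler (2.07 and 2.02) and nearly none in Sha (−0.13 and −0.11). Without salt, however, Sha minus Ler was 2.40 by the first probe and −0.32 by the second. The level of CAF1a in Sha relative to Ler therefore depended on the probe. Its sign without salt also differed between a probe in the set and one outside it for AT4G19520 (1.33 and −0.53), BGLU46 (0.62 and −0.23), AT5G50090 (0.78 and −0.07) and EXO70B2 (0.12 and −0.18). For EXO70B2, 0.12 was below the SD of that probe (0.21 in Ler control, 0.17 in Sha control). At the outside probes, the Ler control arrays read −3.69 and −3.28 for BGLU46 and −3.65 and −3.52 for AT5G50090. The signs of these 3 genes are thus not settled. The sign was the same at every detected probe of VSP1, TBL26 and AT1G28600. Genes read by 1 probe lack this check. Whether a sequence difference between the ecotypes under a probe has a part in these disagreements was not tested.

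Several genes known from the cell wall and secretion were in the set. XTH10 (AT2G14620), an enzyme of the family that cuts and rejoins xyloglucan in the wall, read −2.53 and −2.47 in Ler control, 0.04 and 0.16 in Ler salt, −3.09 and −3.35 in Sha control, and −2.77 and −2.88 in Sha salt. Its rise in Ler was 6.07-fold, and every Sha array was below every Ler array. TBL26 (AT4G01080), of a family that adds acetyl groups to wall polysaccharides, read −0.15 and 0.13, 1.64 and 1.79, −0.74 and −0.39, and −0.65 and −0.34 by its brighter probe (A_84_P149978). Its second probe gave nearly the same changes, 1.62 in Ler and −0.00 in Sha against 1.73 and 0.07. EXO70B2 (AT1G07000), a subunit of the exocyst that tethers secretory vesicles, changed by 1.54 and 1.70 in Ler and by 0.37 and 0.47 in Sha at its 2 probes in the set. GATL2 (AT3G50760), a galacturonosyltransferase-like protein, changed by 1.56 in Ler and 0.39 in Sha. For BGLU46 (AT1G61820), a glucosidase of lignin precursors, these changes were 1.62 and −0.25. IDL1 (AT3G25655), a small secreted peptide of the IDA-like family, changed by 1.51 and −0.16. CYP84A4 (AT5G04330), a cytochrome P450 that is not counted with these genes, changed by 1.90 in Ler and 0.40 in Sha.

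Transport was represented by 4 genes. HA3 (AT5G57350), a plasma membrane proton pump that drives the transport of other ions, read 1.64 and 1.88 in Ler control, 3.88 and 3.69 in Ler salt, 2.49 and 2.62 in Sha control, and 2.67 and 2.93 in Sha salt. Ler crossed from below to above Sha with a 4.07-fold rise, and its signal was never under 208 times the local background. DIC2 (AT4G24570), a mitochondrial carrier of dicarboxylates, read −0.84 and −0.73, 0.91 and 0.97, 0.57 and 0.64, and 0.94 and 0.98. Salt thus brought Ler to the level of Sha with salt, not above it. OCT6 (AT1G16370), of the organic cation and carnitine transporter family, changed by 1.58 in Ler and −0.42 in Sha, the lowest Sha change of the set. ABCG16 (AT3G55090), an ABC transporter, read −3.19 and −3.49, −1.75 and −1.79, −3.90 and −4.14, and −3.38 and −3.67. It changed by 1.57 in Ler and 0.50 in Sha, the highest Sha change of the set.

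Metabolic enzymes included a gene of sulfur metabolism with a distinct pattern. SERAT3;2 (AT4G35640), a serine acetyltransferase that makes the precursor of cysteine, read −5.71 and −5.48 in Ler control, −3.42 and −3.41 in Ler salt, −2.40 and −2.30 in Sha control, and −2.27 and −2.22 in Sha salt. Both Sha groups were above both Ler groups, and the 4.52-fold rise in Ler left it below Sha. PGL5 (AT5G24420), of the family of 6-phosphogluconolactonases in the pentose phosphate pathway, read 0.50 and 0.38, 2.59 and 2.54, −0.75 and −0.55, and −0.20 and −0.19. Here every Ler array was above every Sha array, and salt widened the distance. GSTU6 (AT2G29440), a tau-class glutathione transferase, read −1.49 and −1.46 in Ler control, 0.14 and 0.44 in Ler salt, −1.38 and −1.63 in Sha control, and −1.30 and −1.38 in Sha salt. The ecotypes overlapped without salt and separated with it. ZCF37 (AT1G59590) read −2.11 and −2.08, −0.52 and −0.58, −2.72 and −2.78, and −2.29 and −2.49, with every Sha array below Ler.

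The other 14 genes carry only a locus identifier in the table used, and no role is given for them. Their 15 probes changed by 1.54 to 3.60 in Ler and by −0.40 to 0.48 in Sha. AT2G44578 had the largest rise among them and read −4.64 and −4.83 in Ler control, −1.15 and −1.12 in Ler salt, −3.79 and −3.57 in Sha control, and −3.66 and −3.56 in Sha salt, a 12.1-fold rise in Ler. AT1G47395 and AT1G47400, which are neighbors with no other protein-coding gene between them in TAIR10.1, had the same pattern. AT1G47395 read −0.98 and −0.99, 1.25 and 1.35, −0.19 and −0.10, and −0.40 and −0.49. AT1G47400 read −1.51 and −1.50, 0.59 and 0.80, −1.10 and −1.01, and −1.30 and −1.46. In both, Ler passed from below to above Sha and the Sha salt arrays were below the Sha control arrays (changes of −0.31 and −0.33).

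AT5G24040 read −4.82 and −4.90 in Ler control, −2.58 and −2.59 in Ler salt, −5.00 and −4.91 in Sha control, and −5.32 and −5.27 in Sha salt, so that only Ler salt stood apart by more than 1. AT2G42270 read −4.84 and −4.70, −2.77 and −2.70, −0.82 and −0.56, and −1.29 and −0.89. Like SERAT3;2 it was higher in Sha under both conditions. AT3G09405 read −3.65 and −3.51, −1.90 and −1.67, −3.94 and −4.09, and −3.93 and −4.18, with every Sha array below Ler. AT4G10265 read −5.63 and −5.62 in Ler control, −3.70 and −3.33 in Ler salt, −5.52 and −5.37 in Sha control, and −4.93 and −5.28 in Sha salt, a change of 2.11 in Ler and 0.34 in Sha. AT4G19520 changed by 2.13 in Ler and 0.08 in Sha at its brighter probe in the set and by 1.61 and 0.28 at the other. The remaining genes of this kind were AT1G28600 (1.94 and 0.40), AT1G61360 (1.80 and −0.12), AT5G14730 (1.78 and 0.48), AT2G48090 (1.66 and 0.09), AT1G71530 (1.64 and 0.23) and AT5G50090 (1.54 and 0.37, Ler first in each pair). The 5 probes without a gene changed by 1.55 to 2.19 in Ler and −0.25 to 0.43 in Sha, and 4 of them ended above all Sha arrays in Ler salt.

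**Figure D3:**
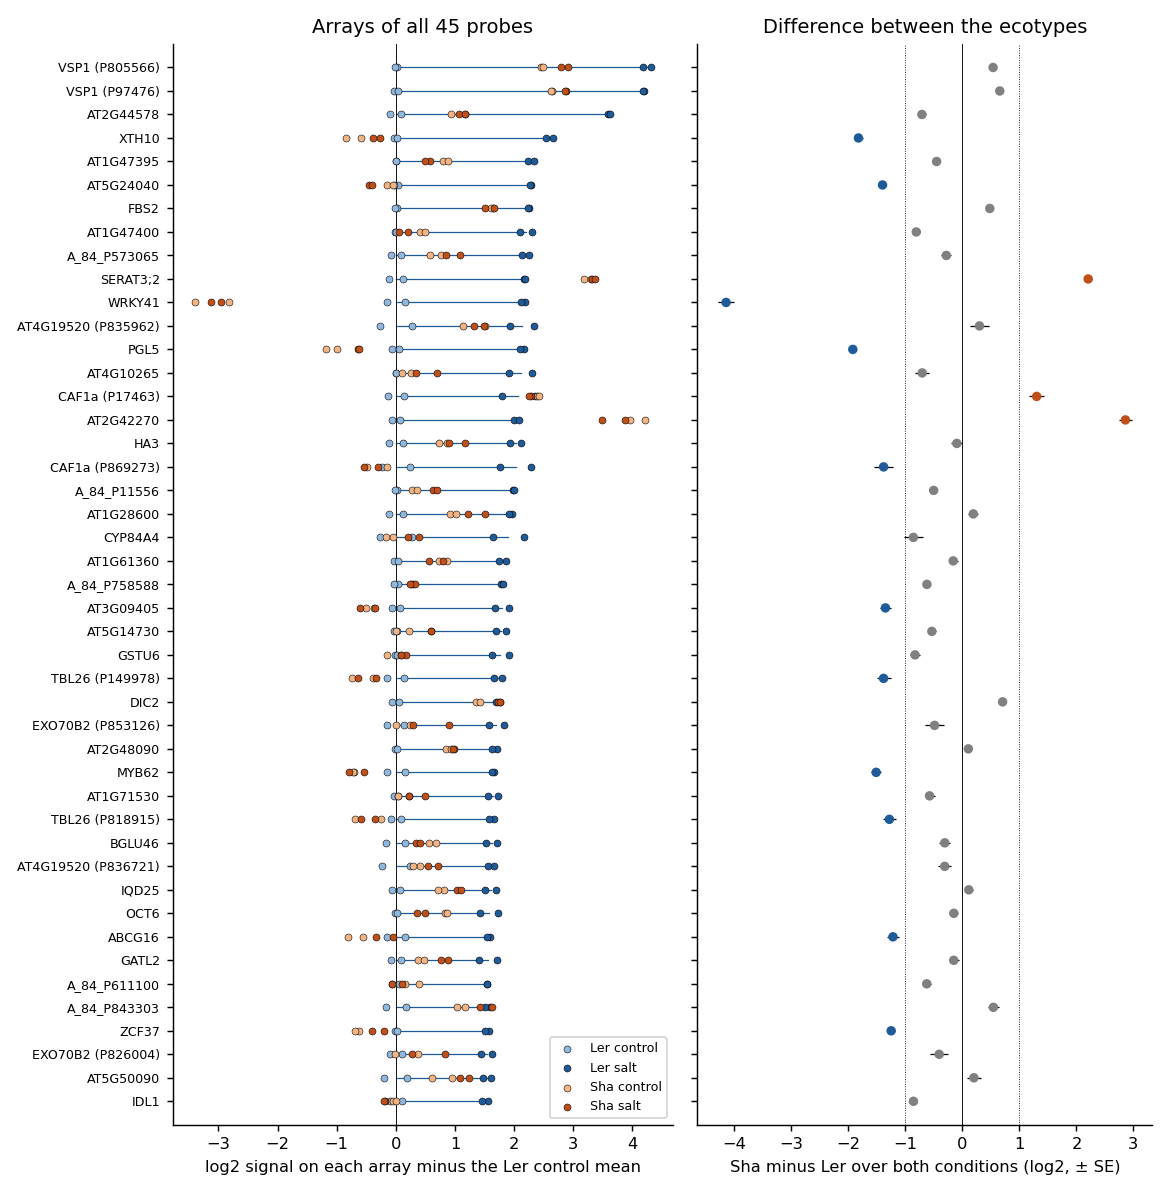
Left, log2 signal of the 45 probes on each of the 8 arrays, shown as the difference from the Ler control mean of the same probe, in order of the rise in Ler, which the blue line spans. Right, Sha minus Ler over both conditions (log2, ± SE of the limma fit), with orange for the 3 probes called higher in Sha, blue for the 11 called lower and dotted lines at a 2-fold difference.

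The set was chosen on probes, and 6 of its genes had 8 further probes well above background on all 8 arrays. All 8 rose more in Ler than in Sha, with changes of 1.25 to 5.16 in Ler (median 1.71) and −0.19 to 1.21 in Sha (median 0.60). Being outside the set, each had to miss a limit, so only their sizes are informative: 6 of the 8, at 5 of the 6 genes, lay above 0.5 in Sha. These genes were VSP1 (1.01), AT5G50090 (1.21), AT4G19520 (0.76), AT1G28600 (0.64 and 0.51) and EXO70B2 (0.56). BGLU46 was the exception, with −0.19 and −0.08 in Sha and a rise of 1.27 and 1.25 in Ler. At 2 probes each, 5 genes (VSP1, CAF1a, TBL26, EXO70B2 and AT4G19520) met both limits. Among them VSP1, EXO70B2 and AT4G19520 also had the further probe above 0.5 in Sha, and CAF1a and TBL26 had no further detected probe. A rise in Ler alone is therefore a statement on the probes of the set, and for VSP1 and AT5G50090 another probe of the same gene rose by more than 1 in Sha.

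**Figure D4:**
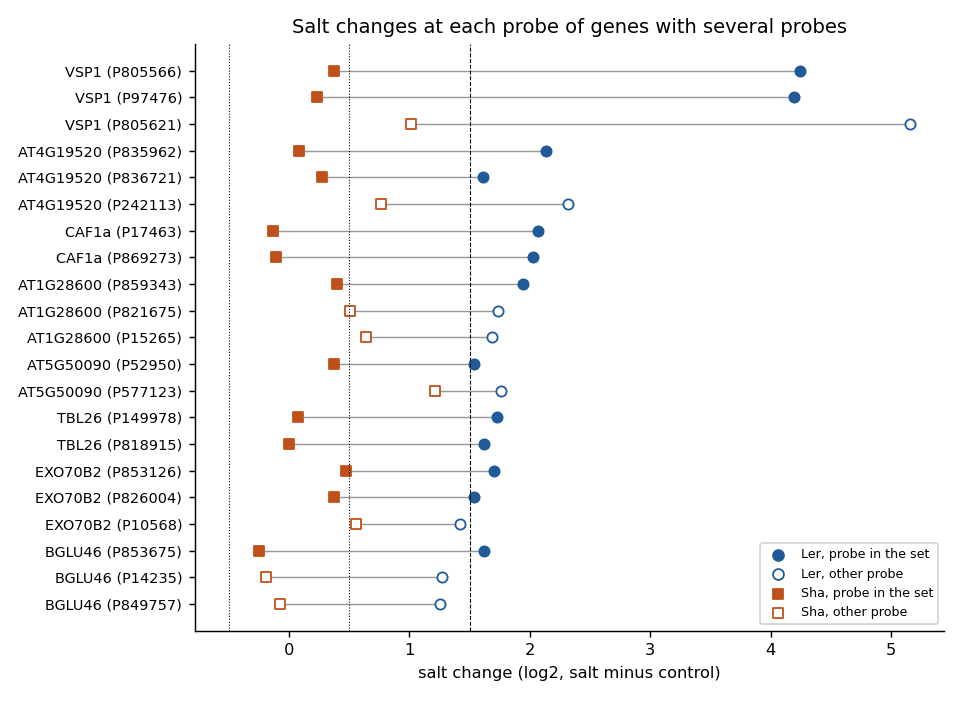
Salt change (horizontal, log2) in Ler (blue circles) and Sha (orange squares) at each detected probe of the 8 genes of the set with more than 1, filled for probes in the set and open for the 8 others. The dashed line is the Ler limit of 1.5, the dotted lines are the Sha limits of −0.5 and 0.5, and the open squares of VSP1 and AT5G50090 lie beyond 1.

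The average difference between the ecotypes, Sha minus Ler over both conditions, is a measure whose error is independent of both salt changes, and it was tested with limma over 34658 probes with Benjamini-Hochberg adjusted p-values. A difference was called at an adjusted p under 0.05 and more than 2-fold. Of the 45 probes, 14 were called, against a background of 12.0% over all tested probes and 7.55% over those well above background on all 8 arrays. Of these, 3 were higher in Sha (background 5.33% and 2.92%) and 11 lower (6.66% and 4.63%). The share called was 31.1% in the set, 25.6% among the 121 probes of the opposite choice and 17.4% among probes above 1.5 in both ecotypes. Neither the count called nor its direction may be read as a result, since the rule itself shifts this difference. With equal levels without salt, a rise in Ler alone would by itself give a median difference of −0.89, and the median found was −0.49, beside −0.03 over all tested probes. The 3 higher probes lie on the other side of 0 from that value. With 2 arrays per group, these p-values rest on the spread between pairs of plates, and the fit took the arrays as independent. Control and salt arrays of the same ecotype and number shared a slide, however, with a slide correlation of 0.539 and 2 slides per ecotype. With slide as a random block, 3 and 11 were again called. The limma adjusted p then went from 6.4e-06 to 5.9e-05 for WRKY41 and from 5.0e-04 to 0.0012 for the first CAF1a probe. All 14 differed in the same direction by more than 1 within each of the 2 replicate numbers. The same arrays made the means that were called, so this is no separate check.

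AT2G42270 was the most raised in Sha, with a difference of 2.86 ± 0.11 (log2, SE, limma adjusted p = 9.8e-06). SERAT3;2 was higher in Sha by 2.21 ± 0.07 (limma adjusted p = 4.2e-06). Its lowest background-corrected signal, in Ler control, was 0.98 times the local background, and the difference was 1.32 under normexp background correction (limma adjusted p = 0.014). For the first CAF1a probe the difference was 1.3 ± 0.13 (adjusted p = 5.0e-04). The second CAF1a probe was called lower, with −1.38 ± 0.17 (adjusted p = 0.0011), so this gene has no settled direction. WRKY41 showed the largest difference of the set, −4.15 ± 0.14 (adjusted p = 6.4e-06), which was −2.66 under normexp background correction. PGL5 (−1.92 ± 0.06), XTH10 (−1.82 ± 0.08), MYB62 (−1.51 ± 0.09), AT5G24040 (−1.40 ± 0.05) and AT3G09405 (−1.35 ± 0.09) were lower in Sha too. The rise in Ler that chose the set is part of every difference in this paragraph. For probes called lower, the p-value is therefore not free of that choice. Without salt, Sha minus Ler was −1.09 for PGL5, −0.72 for XTH10, −0.71 for MYB62, −0.10 for AT5G24040 and −0.44 for AT3G09405. Both TBL26 probes were called and agreed, with −1.38 ± 0.12 and −1.28 ± 0.12. ZCF37 (−1.25 ± 0.06) and ABCG16 (−1.22 ± 0.11) completed the called probes, with adjusted p-values of 2.5e-05 and 2.8e-04.

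Split by condition, which uses the arrays of the rule and is a description, Sha was above Ler without salt in 31 of the 45 probes, by more than 1 in 10, and the median was 0.36 (−3.11 to 4.08). With salt, Sha was below Ler in 41, by more than 1 in 30, and the median was −1.32 (−5.19 to 1.64). Without salt 33 probes were within 1 of each other in the ecotypes, and with salt 13 were.

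In 13 lists of known pathway genes, 405 genes were tested by their brightest probe, and 209 of them rose with salt in Ler, 184 of these also in Sha (limma, adjusted p under 0.05 and over 2-fold, against 12.4% of all tested probes in Ler and 14.8% in Sha). Members were 3 of the 405 (0.741%), VSP1 among the jasmonate genes, SERAT3;2 among the sulfur genes and GSTU6 among the detoxification genes. Of all genes with a probe well above background on all 8 arrays, 0.181% were members. The 2 shares are not alike, since the 405 needed detection in only 1 group. VSP1 is a member by its dimmer probes, and its brightest probe, which stands for it in the list, is outside the set. The lists were written with earlier results of these data known.

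Most of the other jasmonate genes were called in each ecotype. Of 30 tested, 19 rose and 5 fell in Ler, 20 rose and 4 fell in Sha (of all tested probes, 12.4% rose and 15.3% fell in Ler, 14.8% and 16.2% in Sha). The salt change differed between the ecotypes in 5, higher in Ler in 3 and lower in 2 (background 4.03% and 5.05% of all tested probes). JAZ8, a repressor of jasmonate signaling, rose by 7.19 in Ler and 4.52 in Sha, and JMT, the jasmonate methyltransferase, changed by 0.50 in Ler and fell by 1.06 in Sha. The remaining gene with a higher change in Ler was VSP2, and its difference of 4.66 ± 0.11 (adjusted p = 9.96e-05) was the largest of the list. AOC2, an allene oxide cyclase of jasmonate synthesis, went the other way: it fell by 1.65 in Ler and rose by 1.98 in Sha, and its copy AOC1 fell by 1.62 in Ler and changed by 0.08 in Sha. LOX2, which starts jasmonate synthesis in the chloroplast, rose in both, by 2.90 and 2.00.

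Of the sulfur genes other than SERAT3;2, 24 were tested. In Ler 13 rose and in Sha 10, a difference in counts that was not tested, and 5 had a higher salt change in Ler (background 4.03%). These were AT5G26220 (4.89 in Ler and 2.12 in Sha), APR3 of sulfate reduction (1.85 and 0.63), and LSU1 (3.44 and 1.99), LSU2 (2.22 and 0.94) and LSU3 (3.83 and 2.32), which are known to respond to low sulfur. Like SERAT3;2, AT5G26220 was low in Ler control (−3.66 and −3.60) and high in Sha control (0.06 and 0.03), with 1.31 and 1.20 in Ler salt and 2.20 and 2.14 in Sha salt. Unlike it, AT5G26220 also rose in Sha. Under normexp background correction 2 of the 24 had a higher change in Ler in place of 5. In the detoxification list, apart from GSTU6, 24 of 41 genes rose in Ler and 25 in Sha.

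**Figure D5:**
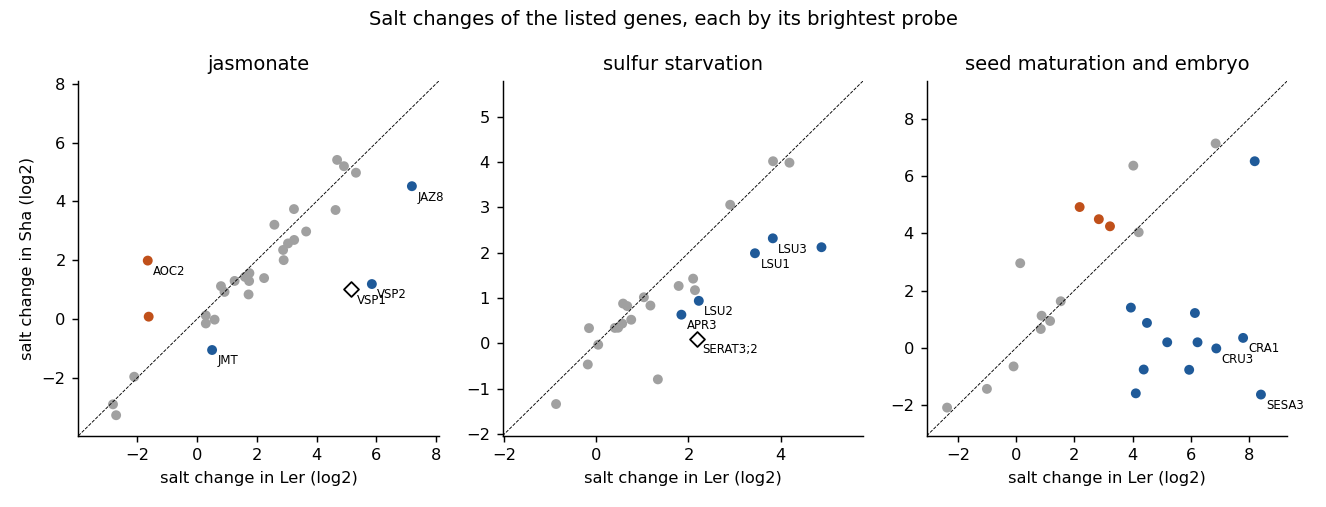
Salt change in Sha (vertical, log2) against that in Ler (horizontal, log2) for the tested genes of 3 lists, each by its brightest probe, with equal changes on the dashed line. Blue genes had a higher salt change in Ler and orange genes a lower one by the limma test, gray genes were not called, white diamonds are VSP1 and SERAT3;2, and seed genes at background in Ler control have fitted values, not bounds.

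The requirement of a signal on all 8 arrays kept many probes out. Another 117 probes met both limits of the salt changes and were well above background in both arrays of 1 or more groups but not everywhere. In 89 of them both Ler control arrays were at background. In 66 of the 117 every Sha array was at background, so meeting the Sha limits says nothing about Sha there. Many seed storage genes were at background in Ler control too. Of 26 tested genes of seed maturation, 20 rose in Ler and 12 in Sha, and the change was higher in Ler in 12 and lower in 3. SESA3, a 2S albumin, rose at least 79.2-fold in Ler, where the Ler control arrays, at background, were set to the lowest signal that counts as well above background. On Sha arrays it read −4.00 and −3.80 without salt and −5.64 and −5.43 with salt. The cruciferins CRA1 and CRU3 rose at least 53.1-fold and 39.5-fold in Ler, and changed by 0.35 and −0.02 in Sha.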

How the data were processed

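RNA from leaves of Ler and Sha seedlings with or without salt was hybridized by the authors to 8 one-color Agilent-021169 arrays, 2 for each of 4 groups. The values they deposited are spot intensity, extracted by the authors with Agilent Feature Extraction 10.7.1.1. A deposited table of all samples holds the same intensity values. They are corrected for background and spatial trends within each array and are not scaled between arrays.

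Of 43603 probes other than controls, 31 with an outlier spot were left out, among them 1 that met the rule of the set. The log2 signals were centered on the 75th percentile of their array. The fit (limma 3.58.1 in R 4.3.3, with statmod 1.5.0 for the slide block) took the 34658 probes read well above background by both arrays of some group, with 4 groups, 4 residual degrees of freedom and 1.95 prior ones. A call required an over 2-fold change with an adjusted p (Benjamini-Hochberg) under 0.05. The code was tested on simulated data. Tables and figures used Python 3.11.15, numpy 2.4.6, pandas 2.3.3 and matplotlib 3.10.9.

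Gene names came from matching each probe's RefSeq accession to a table of the TAIR10.1 assembly (34245 of 43572 probes). A probe at background in a group was given as "at least" a fold, where the level of that group was, per array, the lowest signal well above background or the probe's signal if higher. Genes described with arrays were the 12 with the largest rise in Ler, those with a called ecotype difference, members of the lists and genes with 2 probes. Other members were named without selection, and DIC2, HA3, JMT, AOC1, LOX2, APR3, LSU1 and LSU2 were added after their values were seen.

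The members, the 13 pathway lists and the 5 marker lists were chosen with earlier results of these data known. Alternatives were quantile normalization, median scaling, normexp with an offset of 50, detection in 1 group, other limits, loci in place of probes, blocks for replicate number and slide, an intensity trend with robust moderation, no fold limit, and each array left out. The number of arrays limits the precision. Sequences were not used here.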

Additional observations from a re-analysis of the deposited data

Results flagged for a closer look

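Genes of the lists that hold a member, and of the seed list, were examined for salt changes that differed between the ecotypes by the limma test, and up to 3 per list with the largest difference are given as the salt change in Ler minus that in Sha (log2). Among jasmonate genes it was 4.66 for VSP2, 2.68 for JAZ8 and −3.64 for AOC2. Among sulfur genes it was 2.76 for AT5G26220 and 1.51 for LSU3. Among detoxification genes it was −1.97 for APX2, an ascorbate peroxidase that rose by 2.35 in Ler and 4.32 in Sha, and −1.03 for NIT4, a nitrilase that rose by 1.18 in Sha and changed by 0.16 in Ler. Among seed genes the fitted difference was 10.05 for SESA3, 7.46 for CRA1 and 6.90 for CRU3, all with both Ler control arrays at background, so these 3 values are no bounds.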

How the results depend on the processing

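The set held 45 probes, and 56 under quantile normalization (44 shared with the 45), 48 under median scaling (40 shared), 35 under normexp (30 shared), 46 with outlier spots kept, and 46 to 54 when 1 array was left out. It held 162 with detection required in 1 group, 18 with a Ler limit of 2, 23 with Sha limits of 0.3, and 29 as genes by their brightest probe. Under those scalings and normexp the opposite set held 100, 146 and 46 probes in place of 121. The ecotype difference was called higher in 3 members and lower in 11 under every scaling, normexp, the slide block, the intensity trend and each array left out, in 3 and 9 as genes, and in 8 and 26 with no fold limit. Its median of −0.49 ranged from −0.54 to −0.43 with 1 array left out, and was −0.56 and −0.44 within replicate numbers 1 and 2, a check chosen after seeing the data.

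Control and salt of the same number and ecotype shared a slide, and their deviations correlated at 0.208 in Ler and 0.470 in Sha. Between the ecotypes, same-numbered samples shared only a number, with correlations of 0.058 to 0.261, so the numbers were not taken as pairs. With the replicate block, 3 members were again called higher and 11 lower.

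Added after seeing the data were the list counts and the genes outside the set. The 3 jasmonate genes with a higher change in Ler were 6 under quantile normalization, and the 12 seed genes 4 under normexp. APX2 (−1.62), JAZ8 (1.46) and LSU3 (1.19) were not called under normexp, JAZ8 not without Sha control replicate 1 (2.57), and NIT4 not without Ler control replicate 1 or Sha salt replicate 1 (both −0.98). No slide held both ecotypes, so slide and ecotype cannot be told apart within a replicate.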
